A study of Mus musculus with 6 samples.

Results

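Ribosome biogenesis genes encode the RNA polymerase I machinery, the small nucleolar ribonucleoprotein (snoRNP) proteins and the assembly factors that build ribosomal subunits in the nucleolus. They were examined in E14Tg2A cells, an established mouse embryonic stem cell line. A set of 40 genes was taken from the deposited expression table by gene symbol, out of 18518 symbols in all, and every member had a row. Libraries came from BACH1-KO cells (3 libraries), whose Bach1 gene had been targeted with CRISPR/Cas9, and from wild-type (WT) cells (3 libraries). BACH1 is a heme-regulated transcription factor known mainly as a repressor. Per the labels' protocols, both genotypes grew for 2 days with leukemia inhibitory factor (LIF, 200 units/ml) in a medium containing serum. The knockout cells had been transfected with a LentiCRISPR V2 plasmid carrying the guides, selected with puromycin and sorted as single-cell clones, and the labels do not say how many clones the 3 knockout libraries represent. Nothing in the labels says that libraries of a genotype came from separate cultures, so the spread behind each p-value is that among the libraries alone and may be technical.

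Ribosomes are made in the nucleolus. RNA polymerase I transcribes a long precursor of the 18S, 5.8S and 28S ribosomal RNAs, snoRNPs guide the methylation and pseudouridylation of that precursor, and assembly factors fold, cut and package it into the small and the large subunit. Rapidly dividing embryonic stem cells have prominent nucleoli, and many genes of this pathway are known targets of MYC, which binds the E-box sequence CACGTG.

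Levels are given in FPKM, fragment counts divided by transcript length and by library size, so levels of different genes can be compared per length, and a value is a share of its library. The summed FPKM was 762745 to 766086 in BACH1-KO and 785800 to 805118 in WT libraries. No counts were used, so absolute depth is unknown; steps among values below 0.1 FPKM gave relative depths of 1.17, 1.18 and 1.01 for the BACH1-KO libraries and 1.00, 1.10 and 1.06 for the WT libraries (WT library 1 set to 1). Transcript of the targeted gene, Bach1, was at 10.5, 10.4 and 10.4 FPKM in BACH1-KO and 7.97, 8.39 and 8.47 FPKM in WT libraries (log2 fold change 0.30, SE 0.05, limma adjusted p = 0.000515), higher rather than lower, and a gene-level value does not show whether the coding sequence was edited. All 8 embryonic stem cell markers were expressed in every library, with summed levels of 6537 to 6786 FPKM in BACH1-KO and 10279 to 11036 FPKM in WT. Of these 8, limma called 7 lower in BACH1-KO and 1, Nanog, higher (means 313 and 298 FPKM). Of 8 fibroblast feeder markers, 2 reached 1 FPKM in either genotype. Their sums were 13.1 to 13.6 FPKM in BACH1-KO and 23.6 to 24.7 FPKM in WT, mostly Thy1 (means 10.2 and 18.8 FPKM). Thy1, Pdgfrb, Pdgfra and Col1a1 were lower in all BACH1-KO libraries than in all WT libraries. Dcn, Col1a2, Col3a1 and Lum, each below 1 FPKM, were higher in all BACH1-KO libraries (Dcn means 0.764 and 0.0664 FPKM). Summed neural markers were at 75.9 to 77.0 and 36.5 to 38.3 FPKM, endoderm markers at 2.97 to 3.65 and 3.70 to 4.22 FPKM, mesoderm markers at 3.87 to 4.42 and 3.93 to 4.93 FPKM, and 6 hepatocyte markers at 618 to 635 and 0.455 to 3.58 FPKM, in BACH1-KO and in WT libraries in that order. The neural sum was mostly Tubb3 (means 65.2 FPKM in BACH1-KO and 32.1 FPKM in WT). Pax6 was higher in all BACH1-KO libraries (means 7.40 and 0.571 FPKM) and Nes lower (0.872 and 2.00 FPKM). Libraries of the genotypes overlapped for Sox1 and Map2. No marker was listed at 0 in all libraries. The part these other transcripts play in the results was not tested.

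Most ribosome biogenesis genes were lower in BACH1-KO cells, and a small group that includes the paired snoRNP proteins Nop56 and Nop58 was higher. All 40 members passed the filter of a mean of at least 1 FPKM. By limma on log2(FPKM + 1) with Benjamini-Hochberg adjustment over all 12187 genes tested, 29 members fell and 6 rose at an adjusted p under 0.05, and the other 5 missed that threshold. That is 87.5% of the members called, where 77.0% of all genes were called. By direction, 72.5% of the members were lower, against 39.7% of all genes, and 15% were higher, against 37.3%. With sums set equal between libraries, 24 members were called lower and 7 higher. Median-of-ratios scaling gave 30 and 6, and quantile normalization 25 and 10. Over all genes tested, these scalings called 4327 lower and 4989 higher, 5131 and 4220, and 4998 and 4250, in that order. The median log2 fold change, BACH1-KO minus WT, was -0.29 over the members and -0.01 over all genes, and the quartiles were -0.48 and -0.06 for the members and -0.37 and 0.39 for all genes. In bulk RNA, a lower level in each cell and a different mixture of cells cannot be told apart.

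The same 29 and 6 members had all 3 libraries of one genotype beyond all 3 of the other, while 79.3% of all genes tested separated in this way (40.9% lower and 38.4% higher). Changes were modest in size. Against a fold change of 1.5, limma called 7 members where it called 19.0% of all genes. Of these members 4 were lower and 3 higher (10.0% and 7.5% of the set, against 8.16% and 10.9% of all genes). The members that passed this stricter test were Mybbp1a, Nop10, Ebna1bp2 and Nolc1 on the lower side and Nop58, Polr1a and Nop56 on the higher side.

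**Figure D1:**
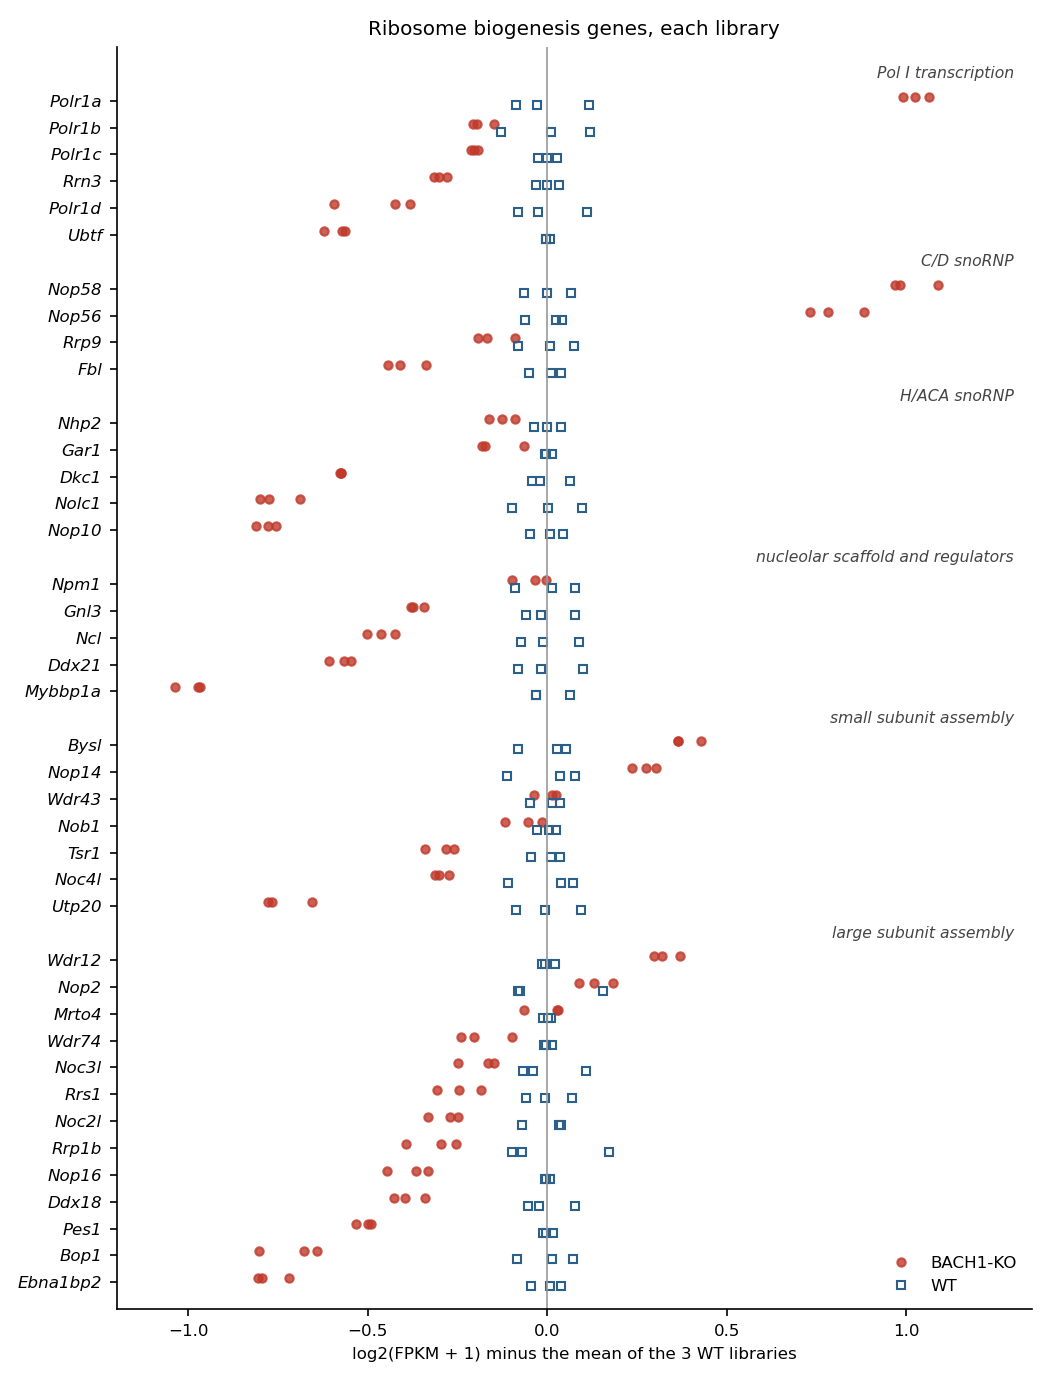
Each row is a ribosome biogenesis gene and each symbol a library (filled circles, BACH1-KO; open squares, WT), placed by its log2(FPKM + 1) minus the mean of the 3 WT libraries, with genes grouped by role. Polr1a, Nop58 and Nop56 lie well to the right of their WT libraries, and 29 genes have all BACH1-KO libraries to the left of all WT libraries.

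**Figure D2:**
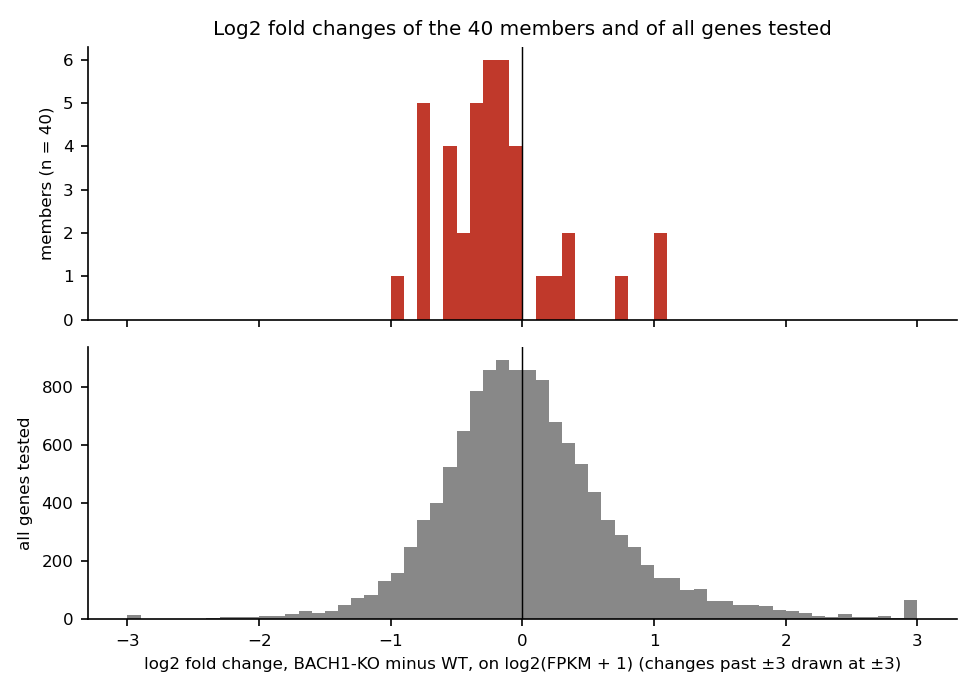
Histograms of the log2 fold change, BACH1-KO minus WT, in bins of 0.1 for the 40 members (top) and for all 12187 genes tested (bottom); the vertical axes count genes, and changes past 3 in size are drawn at 3. The members sit mostly below 0, with 3 of them near or above 0.8.

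The start-site regions of the members that moved furthest are shown first, because Nop56 and Nop58 rose together, Polr1a had the highest log2 fold change of the 40 genes and Mybbp1a the lowest. The stretches are the 250 bases before the RefSeq start site (build GRCm38.p6, 5′ to 3′ on the strand of the gene, which is plus for all 4). They lie at chr1:59684756-59685005 for Nop58, chr2:130274162-130274411 for Nop56, chr6:71908803-71909052 for Polr1a and chr11:72441077-72441326 for Mybbp1a. Capitals mark matches to the CCAAT box (CCAAT or ATTGG) or the GC box (GGGCGG or CCGCCC).
Nop58: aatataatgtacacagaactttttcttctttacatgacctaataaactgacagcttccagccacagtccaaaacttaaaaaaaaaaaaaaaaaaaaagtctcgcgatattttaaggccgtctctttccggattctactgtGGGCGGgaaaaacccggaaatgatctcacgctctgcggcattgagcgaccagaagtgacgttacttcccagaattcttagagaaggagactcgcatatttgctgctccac
Nop56: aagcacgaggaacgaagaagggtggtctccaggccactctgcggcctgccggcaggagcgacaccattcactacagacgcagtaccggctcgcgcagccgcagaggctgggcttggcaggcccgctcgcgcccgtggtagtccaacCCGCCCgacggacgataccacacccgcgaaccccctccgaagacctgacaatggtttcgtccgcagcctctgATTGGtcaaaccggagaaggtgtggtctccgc
Polr1a: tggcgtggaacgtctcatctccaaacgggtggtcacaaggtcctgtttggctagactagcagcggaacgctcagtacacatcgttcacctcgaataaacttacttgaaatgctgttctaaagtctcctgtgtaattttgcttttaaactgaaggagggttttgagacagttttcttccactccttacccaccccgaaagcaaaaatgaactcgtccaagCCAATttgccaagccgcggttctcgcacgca
Mybbp1a: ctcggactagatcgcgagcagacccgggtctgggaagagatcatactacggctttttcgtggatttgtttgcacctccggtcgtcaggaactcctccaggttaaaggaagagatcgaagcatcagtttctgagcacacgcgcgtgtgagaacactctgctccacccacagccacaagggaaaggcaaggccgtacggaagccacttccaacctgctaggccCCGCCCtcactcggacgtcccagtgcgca

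Since these genes are a classic MYC output, the E-box CACGTG was looked for in the 300 bases from 250 before to 50 after the start site. RefSeq entries matched 36 of the 40 members. A match was present in 7 of the 36 members (19.4%) and in 1442 of 13611 genes of the table with an entry (10.6%). Here and for the motifs below, those genes include ones under the filter of 1 FPKM. All members passed that filter, so the sets compared are unlike. Each match is shown in 30 bases with the E-box in capitals, on the strand of the gene. Positions count from 1 at the first transcribed base, with negative numbers before it. Rrn3 holds a pair of matches that begin at -215 and -48 (chr16:13780472-13780501 and chr16:13780639-13780668, plus strand). That of Nop2 begins at -60 (chr6:125131811-125131840, plus strand). The others begin at positions 3 (Pes1, chr11:3963965-3963994, plus), 18 (Wdr43, chr17:71616220-71616249, plus), 25 (Tsr1, chr11:74898092-74898121, plus), 38 (Utp20, chr10:88826765-88826794, minus) and 41 (Mybbp1a, chr11:72441347-72441376, plus).
Rrn3, upstream match: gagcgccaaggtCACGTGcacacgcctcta
Rrn3, nearer match: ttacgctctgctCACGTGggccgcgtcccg
Nop2: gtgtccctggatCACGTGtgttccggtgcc
Pes1: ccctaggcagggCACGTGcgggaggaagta
Wdr43: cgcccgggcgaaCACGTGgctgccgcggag
Tsr1: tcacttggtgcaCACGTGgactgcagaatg
Utp20: cccagcggcactaactaCACGTGaggaaaa
Mybbp1a: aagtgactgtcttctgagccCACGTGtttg

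Of the 7 members with an E-box in this window, 5 fell, 0 rose and 2, Wdr43 and Nop2, did not pass, with a median log2 fold change of -0.30. Of the 29 members with an entry and no E-box, 21 fell and 6 rose, with a median of -0.20. As shares, 71.4% of the members with an E-box and 72.4% of those without fell, against 39.7% of all genes tested. In the other direction, 0% and 20.7% rose, against 37.3%. Both counts are descriptions, and a match is not evidence of binding. Other motifs were searched on both strands. The GC box was in 27 of 36 members (75%, against 60.2% of genes) and the CCAAT box in 10 (27.8%, against 42.6%). The antioxidant response core TGACNNNGC was in 2, Bysl and Gar1 (5.56%, against 16.2%), and the composite site of C/EBP and ATF factors, TGATGNAA, in 1, Nop14 (2.78%, against 3.05%). The letters TGAGTCA, shared by AP-1 sites and the elements that BACH1 and small MAF proteins bind, were in 0 of 36 members and in 5.02% of genes. On its other strand that motif reads TGACTCA, which can form the start of the antioxidant response core, so matches to these can overlap.

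Among the RNA polymerase I genes the catalytic subunit gene Polr1a rose while the other 5 fell. These are 16.7% and 83.3%, against 37.3% and 39.7% of all genes. Polr1a, which encodes the largest subunit (chromosome 6, mm10, 71909053 to 71984935, plus strand), was at 10.8, 11.1 and 11.4 FPKM in BACH1-KO and 5.44, 4.82 and 4.59 FPKM in WT libraries. The groups did not overlap, and the BACH1-KO mean was 2.24 times the WT mean. An exon of Gm26628, which has no value here, overlaps Polr1a on the opposite strand, so reads of the pair may not be told apart. In WT cells Polr1a was the lowest of the 40 members in all 3 libraries, whereas in BACH1-KO cells Utp20 was the lowest. By limma the adjusted p was 2.61e-06, at a log2 fold change of 1.03 (SE 0.07). Genes of chromosome 6 were higher as a group in BACH1-KO, with a median log2 fold change of 0.31 over 541 genes tested and 59.3% of them called higher, against -0.01 and 37.3% for all genes, and the part of this in the rise of Polr1a was not tested. The fold change of Polr1a lay above that median.

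Polr1b, the subunit that completes the catalytic core, was at 16.6, 16.7 and 17.3 FPKM in BACH1-KO and 21.04, 17.5 and 19.4 FPKM in WT libraries. Its highest knockout library and lowest WT library lay close together (log2 fold change -0.18, SE 0.06, limma adjusted p = 0.0296). This call was lost without BACH1-KO library 1 (adjusted p = 0.0832) or 2 (0.0763) or WT library 1 (0.0720) or 3 (0.0682), and with sums set equal between libraries (0.136). Polr1c, a subunit shared with RNA polymerase III, averaged 124 ± 0.815 FPKM in BACH1-KO and 143 ± 2.54 FPKM in WT (SD, n = 3 each). Polr1d, the other shared subunit, averaged 163 ± 12.4 FPKM in BACH1-KO and 226 ± 15.7 FPKM in WT, and had the widest spread of all members within the BACH1-KO libraries, a coefficient of variation of 7.61%. The level of Polr1a relative to Polr1b was 0.652, 0.664 and 0.660 in BACH1-KO and 0.259, 0.275 and 0.236 in WT libraries. An exact two-sided permutation test of this ratio over libraries gave p = 0.1, the smallest that 3 against 3 allow. Polr1a separated upward and Polr1b downward, so this outcome was fixed and adds no support.

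Rrn3, the initiation factor that links polymerase I to growth signals, was at 49.4, 49.9 and 50.7 FPKM in BACH1-KO and 60.4, 61.7 and 63.2 FPKM in WT libraries. Ubtf, the upstream binding factor that keeps ribosomal DNA open, was at 30.5, 30.3 and 29.3 FPKM in BACH1-KO and 45.8, 45.5 and 45.5 FPKM in WT libraries. Both sets of libraries were tight and clearly apart. Rrn3 had a log2 fold change of -0.30 (SE 0.03, limma adjusted p = 5.71e-05) and Ubtf of -0.59 (SE 0.03, adjusted p = 1.41e-06). Among 10 further polymerase I genes, 5 rose and 3 fell. That is 80.0% called, near the 77.0% of all genes, of which 37.3% rose and 39.7% fell. The subunit gene Twistnb (Polr1f) averaged 55.7 ± 0.787 and 45.1 ± 2.40 FPKM and Cd3eap (Polr1g), which encodes another subunit, 15.1 ± 0.360 and 7.70 ± 2.16 FPKM, in BACH1-KO and WT in that order. Taf1d, of the promoter selectivity factor, averaged 57.4 ± 3.98 FPKM in BACH1-KO and 84.9 ± 5.14 FPKM in WT, and Ttf1, the termination factor, 7.32 ± 0.210 and 9.83 ± 0.536 FPKM.

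The box C/D snoRNP, which methylates ribosomal RNA, has NOP56, NOP58 and the methyltransferase fibrillarin (Fbl) at its core, and transcripts of these partners moved apart. Nop58 (chromosome 1, 59684971 to 59719044, plus strand) was at 519, 478 and 483 FPKM in BACH1-KO and 244, 255 and 233 FPKM in WT libraries, 2.02 times as high. Nop56 (chromosome 2, 130274430 to 130279313, plus strand) was at 354, 319 and 331 FPKM in BACH1-KO and 197, 195 and 184 FPKM in WT libraries, 1.74 times as high. All knockout libraries stood far above all WT libraries for both genes. The log2 fold changes were 1.01 for Nop58 (SE 0.05, limma adjusted p = 3.93e-07) and 0.80 for Nop56 (SE 0.05, adjusted p = 1.43e-06). An exon of Idh3b overlaps Nop56 on the opposite strand; Idh3b averaged 88.4 ± 0.918 FPKM in BACH1-KO and 116 ± 2.26 FPKM in WT.

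Fbl, in contrast, was at 263, 283 and 269 FPKM in BACH1-KO and 367, 345 and 360 FPKM in WT libraries, with no overlap (log2 fold change -0.40, SE 0.04, limma adjusted p = 2.65e-05). Rrp9, a protein specific to the U3 snoRNP, was at 64.6, 63.4 and 68.2 FPKM in BACH1-KO and 76.5, 73.1 and 68.6 FPKM in WT libraries, where the nearest libraries of the genotypes almost met. Its call (log2 fold change -0.15, limma adjusted p = 0.0197) was lost without BACH1-KO library 1 (adjusted p = 0.0595) or 2 (0.0700) or WT library 1 (0.0520) or 2 (0.0529) and after rescaling to equal sums (0.151) or quantile normalization (0.460). The order of the core partners changed with genotype. Nop58 transcript per Fbl transcript was 1.98, 1.69 and 1.80 in BACH1-KO and 0.664, 0.739 and 0.647 in WT libraries, and Nop56 per Fbl was 1.348, 1.13 and 1.23 in BACH1-KO and 0.537, 0.565 and 0.509 in WT. Between the 2 paralogs the ratio moved less, with Nop58 per Nop56 at 1.47, 1.498 and 1.46 in BACH1-KO and 1.24, 1.31 and 1.27 in WT libraries. Each of these ratios separated the genotypes and gave p = 0.1 in the exact two-sided permutation test. For a gene that separated upward over one that separated downward, as in both ratios to Fbl, this outcome was fixed and adds no support. In all, 11 ratios between members were computed, from pairs chosen after their values were seen, and all 11 gave this smallest possible value.

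The box H/ACA snoRNP pseudouridylates ribosomal RNA, and its core proteins are also part of telomerase. All 5 members of this group fell, by unequal amounts, where 39.7% of all genes fell. Nop10, the smallest core protein (chromosome 2, 112261926 to 112263269, plus strand), was at 185, 182 and 178 FPKM in BACH1-KO and 302, 314 and 322 FPKM in WT libraries. Dkc1, the pseudouridine synthase dyskerin, was at 118, 117 and 117 FPKM in BACH1-KO and 173, 184 and 170 FPKM in WT libraries. Neither gene had a knockout library near the WT range. Nop10 had a log2 fold change of -0.78 (SE 0.03, limma adjusted p = 3.22e-07) and Dkc1 of -0.58 (SE 0.03, adjusted p = 1.72e-06).

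The other H/ACA core genes fell less. Nhp2 averaged 400 ± 10.3 FPKM in BACH1-KO and 436 ± 11.5 FPKM in WT, and Gar1 41.3 ± 1.92 and 45.6 ± 0.330 FPKM (SD, n = 3 each). Their log2 fold changes of -0.13 and -0.14 were called by limma (adjusted p = 0.00794 for Nhp2 and 0.0122 for Gar1) but not after rescaling to equal sums (0.0882 and 0.101). After quantile normalization the log2 fold change of Nhp2 turned to 0.06 (adjusted p = 0.113) and that of Gar1 was no longer called (0.237). Nop10 per Nhp2 was 0.462, 0.468 and 0.434 in BACH1-KO and 0.712, 0.721 and 0.720 in WT libraries. Nolc1, a nucleolar phosphoprotein that binds both snoRNP classes and is grouped here with the H/ACA proteins, was at 46.0, 42.5 and 43.3 FPKM in BACH1-KO and 80.0, 74.9 and 69.8 FPKM in WT libraries (log2 fold change -0.75, SE 0.05, limma adjusted p = 5.00e-06). These libraries did not overlap.

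**Figure D3:**
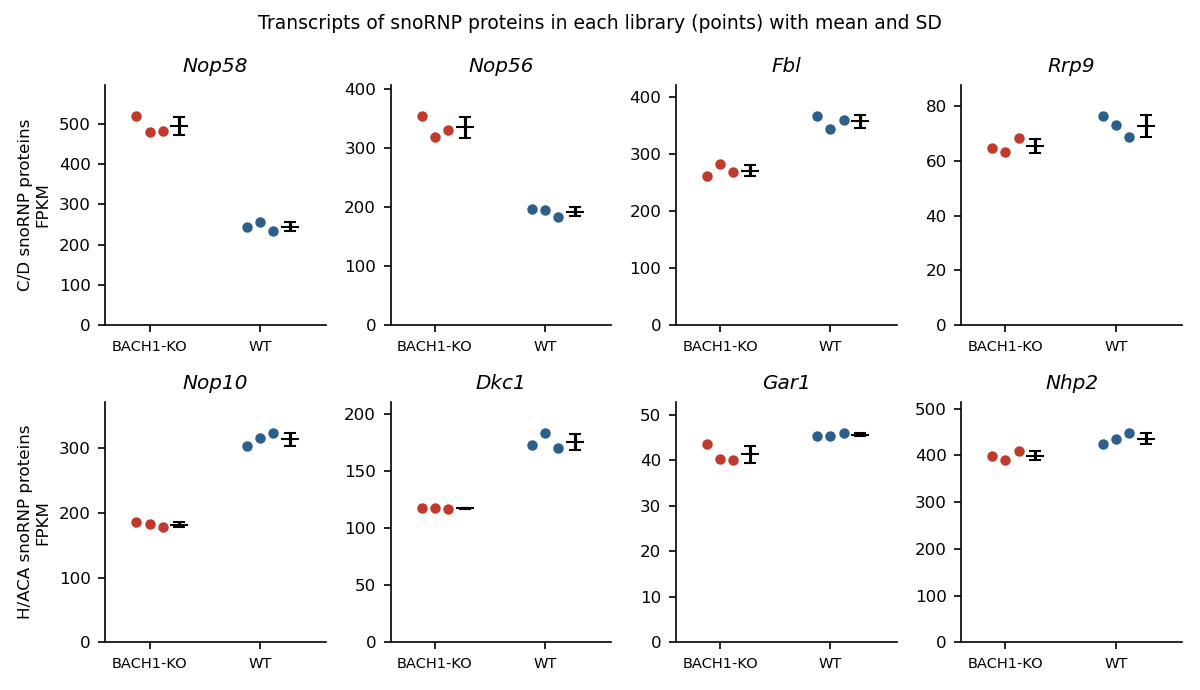
FPKM of 8 snoRNP protein genes in each library (points), BACH1-KO left and WT right in each panel, with the mean and SD of 3 libraries beside them; each vertical axis starts at 0. Nop58 and Nop56 are higher in BACH1-KO, the other 6 genes are lower, and Rrp9, Gar1 and Nhp2 differ least.

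Among 11 further snoRNP genes, mostly assembly factors, 9 fell and 2 rose. These are 81.8% and 18.2%, against 39.7% and 37.3% of all genes. Ruvbl2, an ATPase of the R2TP assembly complex, averaged 124 ± 2.29 FPKM in BACH1-KO and 235 ± 6.43 FPKM in WT, and its partner Ruvbl1 109 ± 2.51 and 200.3 ± 6.12 FPKM. Znhit6, a box C/D assembly factor, averaged 19.9 ± 1.07 FPKM in BACH1-KO and 16.2 ± 1.56 FPKM in WT, and Naf1, an H/ACA assembly factor, 31.5 ± 0.706 and 29.3 ± 1.09 FPKM.

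Among the abundant nucleolar proteins and regulators, 4 of 5 fell (80.0%, against 39.7% of all genes) and Npm1 did not pass. Mybbp1a, a MYB-binding protein of the nucleolus (chromosome 11, 72441355 to 72451768, plus strand), had the lowest log2 fold change of the set, with 95.8, 101 and 100.3 FPKM in BACH1-KO and 207, 194 and 193 FPKM in WT libraries. The WT mean was 2.00 times the BACH1-KO mean (log2 fold change -0.99, SE 0.04, limma adjusted p = 1.88e-07). Ncl, which encodes nucleolin, was at 182, 172 and 177 FPKM in BACH1-KO and 259, 242 and 232 FPKM in WT libraries. Ddx21, an RNA helicase that acts in polymerase I transcription and ribosomal RNA processing, was at 69.5, 66.6 and 68.6 FPKM in BACH1-KO and 109, 101 and 96.3 FPKM in WT libraries. Both genes had separate libraries, with log2 fold changes of -0.46 and -0.57.

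Gnl3, the GTPase nucleostemin, known for its high level in stem cells, was at 116, 114 and 113 FPKM in BACH1-KO and 156, 146 and 142 FPKM in WT libraries (log2 fold change -0.37, SE 0.04, limma adjusted p = 5.47e-05). Npm1, nucleophosmin, was by far the most abundant member, at 5413, 5067 and 5297 FPKM in BACH1-KO and 5724, 5473 and 5093 FPKM in WT libraries. Its groups overlapped (log2 fold change -0.05, adjusted p = 0.425). With a level far above the other members, it weighs most in their summed share. With Npm1 the 40 members made up 1.23%, 1.18% and 1.21% of the summed FPKM in BACH1-KO and 1.304%, 1.23% and 1.18% in WT libraries, which overlap. Without Npm1 the other 39 made up 0.520%, 0.515% and 0.515% in BACH1-KO and 0.576%, 0.551% and 0.547% in WT libraries, which do not.

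Small-subunit assembly factors were mixed, with 3 of 7 members lower, 2 higher and 2 not past. These are 42.9% lower, near the 39.7% of all genes, and 28.6% higher, against 37.3%. Utp20, a large scaffold protein of the small-subunit processome, was at 9.13, 9.05 and 9.93 FPKM in BACH1-KO and 17.4, 15.2 and 16.1 FPKM in WT libraries (log2 fold change -0.73, SE 0.06, limma adjusted p = 1.22e-05). Tsr1, a GTPase-like factor of the cytoplasmic pre-40S particle, averaged 69.3 ± 1.99 FPKM in BACH1-KO and 85.2 ± 2.40 FPKM in WT, and Noc4l, a partner of NOP14, 32.4 ± 0.447 and 40.03 ± 2.70 FPKM. Nop14 itself rose: it was at 56.9, 55.3 and 58.0 FPKM in BACH1-KO and 49.4, 48.0 and 43.3 FPKM in WT libraries (log2 fold change 0.27, SE 0.05, adjusted p = 0.00153). The libraries of Utp20 and of Nop14 separated by genotype in opposite directions.

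Bysl, which encodes the pre-40S factor bystin, also rose, with 17.9, 18.7 and 17.9 FPKM in BACH1-KO and 14.2, 14.0 and 12.9 FPKM in WT libraries (log2 fold change 0.39, SE 0.05, limma adjusted p = 1.63e-04). The gene shares exonic sequence on the opposite strand with Ccnd3, a D-type cyclin gene that averaged 70.7 ± 0.0842 FPKM in BACH1-KO and 144 ± 4.30 FPKM in WT. Wdr43, a subunit of the processome needed early for pre-ribosomal RNA, averaged 92.6 ± 2.10 FPKM in BACH1-KO and 92.6 ± 2.74 FPKM in WT, and Nob1, the nuclease that forms the end of 18S ribosomal RNA, 103 ± 3.76 and 107 ± 1.98 FPKM. The libraries of both genes overlapped (limma adjusted p = 1.00 and 0.142). Quantile normalization, which fits all libraries to 1 distribution, called Wdr43 and Nob1 higher (log2 fold change 0.15 and 0.09, adjusted p = 0.00419 and 0.0398), while median-of-ratios scaling called Nob1 lower (-0.10, adjusted p = 0.0258).

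Large-subunit factors fell in 10 of 13 cases, with 1 higher and 2 not past. These are 76.9% lower and 7.69% higher, against 39.7% and 37.3% of all genes. The PeBoW complex, formed by PES1, BOP1 and WDR12, showed both directions. Bop1 was at 29.3, 32.9 and 32.1 FPKM in BACH1-KO and 54.6, 48.9 and 52.4 FPKM in WT libraries, and Pes1 was at 144, 144 and 140.0 FPKM in BACH1-KO and 203, 202 and 205 FPKM in WT libraries. Wdr12 was at 45.9, 44.3 and 43.6 FPKM in BACH1-KO and 35.1, 35.8 and 34.9 FPKM in WT libraries. All 3 genes had separate groups, Bop1 and Pes1 lower (log2 fold change -0.71 and -0.51, limma adjusted p = 8.91e-06 and 1.08e-06) and Wdr12 higher (0.33, adjusted p = 4.78e-05). Wdr12 per Bop1 was 1.57, 1.346 and 1.36 in BACH1-KO and 0.643, 0.732 and 0.667 in WT libraries.

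Ebna1bp2, the homologue of yeast Ebp2, was at 53.03, 49.9 and 50.3 FPKM in BACH1-KO and 88.4, 90.4 and 85.1 FPKM in WT libraries (log2 fold change -0.77, SE 0.04, limma adjusted p = 6.44e-07), the largest of the large-subunit members in size. The helicase gene Ddx18 averaged 96.1 ± 2.92 FPKM in BACH1-KO and 126 ± 6.06 FPKM in WT, and Nop16, another factor of this pathway, 27.6 ± 1.152 and 36.2 ± 0.197 FPKM. Rrp1b, Noc2l, Rrs1, Noc3l and Wdr74 fell by less, with log2 fold changes between -0.31 and -0.18 and no overlap between genotypes. Rrp1b had the widest spread within WT, a coefficient of variation of 10.998%. Noc3l lost its call without BACH1-KO library 2 (adjusted p = 0.0648) and after rescaling to equal sums (0.0937). Quantile normalization ended the calls of Wdr74 (adjusted p = 0.342) and Polr1c (0.298).

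Nop2 and Mrto4 were the large-subunit members that did not pass. Nop2, a methyltransferase of 28S ribosomal RNA that lies on chromosome 6, was at 73.6, 76.3 and 71.4 FPKM in BACH1-KO and 74.97, 63.7 and 63.5 FPKM in WT libraries. Only WT library 1 reached the knockout range (log2 fold change 0.13, limma adjusted p = 0.0934), and without it Nop2 was called higher (0.21, adjusted p = 0.00151), as it was after rescaling to equal sums (0.0355) or quantile normalization (0.0107). Mrto4, the homologue of the yeast protein that holds the place of the stalk protein P0, averaged 96.4 ± 3.63 FPKM in BACH1-KO and 96.6 ± 0.784 FPKM in WT (adjusted p = 0.937), and has 2 named pseudogenes. Of the alternatives run, quantile normalization alone called it higher (0.14, adjusted p = 0.00988).

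The wider pathway was read from 5 lists of other genes of ribosome production, 149 genes in all. Of these, 85 fell (57.0%, against 39.7% of all genes) and 35 rose (23.5%, against 37.3%), and the median log2 fold change was -0.21. Of 50 other small-subunit genes 30 fell and 10 rose, and of 52 other large-subunit genes 33 fell and 10 rose, with medians of -0.26 and -0.29. Heatr1, a processome protein needed for polymerase I transcription, averaged 15.6 ± 0.269 FPKM in BACH1-KO and 35.2 ± 0.778 FPKM in WT, and Utp6, another processome gene, 39.3 ± 0.455 and 67.1 ± 0.772 FPKM. Ftsj3, a methyltransferase of the large-subunit pathway, averaged 70.7 ± 3.29 FPKM in BACH1-KO and 149 ± 6.09 FPKM in WT, and Senp3, a SUMO protease, 113 ± 3.12 and 192 ± 6.41 FPKM. Genes that rose included Fcf1, a processome gene (251 ± 6.77 FPKM in BACH1-KO and 136 ± 1.16 FPKM in WT), and the pre-40S kinase gene Riok1 (26.4 ± 0.878 and 17.3 ± 0.443 FPKM). Zfp622, a factor of late pre-60S particles, averaged 45.8 ± 0.501 FPKM in BACH1-KO and 28.3 ± 0.368 FPKM in WT, and the helicase gene Ddx56 29.4 ± 0.542 and 17.2 ± 0.674 FPKM. Of 26 nuclease and exosome genes, 10 fell and 8 rose (median -0.04), which is 38.5% and 30.8%, against 39.7% and 37.3% of all genes. Dis3, an exosome nuclease, averaged 22.4 ± 0.733 FPKM in BACH1-KO and 50.4 ± 2.42 FPKM in WT, and the exonuclease gene Xrn2 53.4 ± 1.91 and 97.0 ± 2.38 FPKM. The exosome subunit gene Exosc5 averaged 136 ± 0.283 FPKM in BACH1-KO and 63.7 ± 2.23 FPKM in WT, and Mphosph6 151 ± 1.12 and 121 ± 5.85 FPKM.

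Genes for the ribosomal proteins themselves went both ways. Of 79 cytosolic ribosomal protein genes, 33 rose and 20 fell (44 and 16 with sums set equal), and the median log2 fold change was 0.08. These are 41.8% higher and 25.3% lower, against 37.3% and 39.7% of all genes. Their summed share was 32.3%, 32.3% and 32.1% of the FPKM in BACH1-KO and 28.6%, 29.1% and 29.1% in WT libraries. These genes have many near-identical pseudogenes that can take or lend reads, so values of single genes are uncertain. Rpl12 averaged 7033 ± 177 FPKM in BACH1-KO and 5127 ± 103 FPKM in WT, and Rpl32 7123 ± 183 and 5035 ± 214 FPKM, while Rpl26 averaged 1009 ± 18.5 FPKM in BACH1-KO and 2520 ± 156 FPKM in WT, and Rpl9 2359 ± 19.4 and 3692 ± 142 FPKM. With every library rescaled to the median ratio over genes, 28 ribosomal protein genes rose and 23 fell. FPKM values are shares of a library, and what this higher share contributes to the lower values of other genes was not tested.

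MYC transcripts, which encode the best known activator of these genes, were low in BACH1-KO. Myc was at 1.33, 1.80 and 1.19 FPKM in BACH1-KO and 16.9, 9.50 and 10.9 FPKM in WT libraries, far apart although the WT libraries varied (log2 fold change -2.43, SE 0.19, limma adjusted p = 8.02e-06). Mycn, the family member more abundant in these cells, was at 44.2, 41.6 and 41.9 FPKM in BACH1-KO and 41.3, 40.8 and 41.0 FPKM in WT libraries, and did not pass (log2 fold change 0.05, adjusted p = 0.220). Of 12 genes of the MYC network, 6 fell and 2 rose (median log2 fold change -0.14). Calls in either direction covered 66.7% of this list, against 77.0% of all genes, of which 39.7% fell and 37.3% rose. Mga, a large MAX partner, averaged 11.02 ± 0.0437 FPKM in BACH1-KO and 23.7 ± 1.599 FPKM in WT, and Mlx, a MAX-like factor, was at 29.7, 28.8 and 31.5 FPKM in BACH1-KO and 52.7, 53.4 and 54.4 FPKM in WT libraries. Mxd3 and Mxd4, MAX partners that oppose MYC, averaged 7.45 ± 0.490 and 8.65 ± 0.662 FPKM in BACH1-KO and 5.56 ± 0.482 and 5.74 ± 2.02 FPKM in WT. Mxi1, of the same family, fell, with 6.72 ± 0.231 FPKM in BACH1-KO and 12.97 ± 0.176 FPKM in WT, and Mxd1 and Mnt did not pass (limma adjusted p = 0.0723 and 0.240). Whether these levels bear on the biogenesis genes was not tested.

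**Figure D4:**
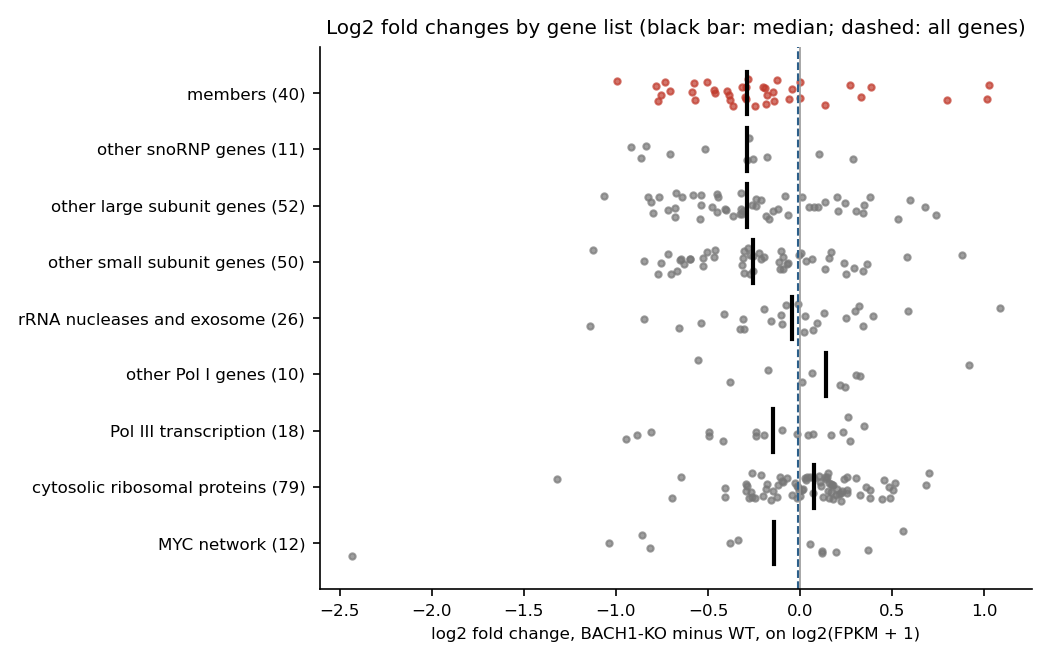
Each point is a gene, placed by its log2 fold change, BACH1-KO minus WT, in the list named at the left with its number of genes tested; black bars are list medians, the dashed line is the median of all genes tested, and vertical scatter within a row carries no value. The 40 members and the other snoRNP, large-subunit and small-subunit lists have medians between -0.29 and -0.26, the cytosolic ribosomal proteins 0.08 and the other polymerase I genes 0.14.

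By the GENCODE M21 annotation (mm10), 7 members carry snoRNA genes within them on the same strand: Nop56 with 5, Nop58 with 4, Ncl, Gnl3 and Wdr43 with 3 each, Tsr1 with 2 and Dkc1 with 1. Of these 7, 4 fell, 2 rose and Wdr43 did not pass, with a median log2 fold change of -0.29, and of the other 33, 25 fell and 4 rose, with a median of -0.28. Of 203 tested genes with such snoRNA genes, 99 fell and 61 rose. As shares, 57.1% of the members with snoRNA genes, 75.8% of those without and 48.8% of the 203 fell, against 39.7% of all genes tested. In 13 members, exons overlap exons of a gene on the opposite strand, and the labels do not say whether strand was used in counting, so reads of such pairs may not be told apart. Partners with a value went the same way as their member in some pairs and the opposite way in others. Hsf2bp (partner of Rrp1b), Pbrm1 (Gnl3) and Mpp1 (Dkc1) fell, as their members did, with log2 fold changes of -0.84, -0.64 and -0.23. Idh3b (Nop56) and Ccnd3 (Bysl) fell where their members rose, with -0.39 and -1.02, and Srr (Tsr1) and Mroh1 (Bop1) rose where their members fell, with 0.57 and 0.28. Rmnd5b (Nhp2) and Spns2 (Mybbp1a) did not pass, and Samd11 (Noc2l) was below the filter. Gm26628 (Polr1a), Gm15522 (Nop14) and 4930556J24Rik (Pes1) had no value. Of the 13 members with such an overlap, 9 fell and 4 rose, and of the other 27, 20 fell and 2, Wdr12 and Nop58, rose. As shares, 69.2% of the 13 and 74.1% of the 27 fell, against 39.7% of all genes tested. In the other direction, 30.8% of the 13 and 7.41% of the 27 rose, against 37.3%. The members lie on 18 chromosomes, with 6 on chromosome 11 and 5 on chromosome 1, whose genes had median log2 fold changes of -0.13 and 0.01.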

How the data were processed

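RNA sequencing values of 6 libraries were used. Per library and gene symbol, the deposited table holds FPKM; Cufflinks and build mm10 appear in the submitters' processing notes. Sources used here give no aligner, gene annotation or version. Column names give the genotype only, so each column was a replicate of its group. Rows without a symbol (23, with 0.0987% of the summed FPKM) were left out, and 18518 remained. Genes had to average at least 1 FPKM over the libraries (12187 did), and limma 3.58.1 (R 4.3.3) was run on their log2(FPKM + 1) (eBayes with a mean-variance trend, two-sided, Benjamini-Hochberg adjustment, threshold 0.05), after the procedure was tested on simulated data. Fold changes on this scale understate changes of low genes. SE is the moderated standard error. Positions came from GENCODE M21 and promoter sequences from RefSeq (GRCm38.p6). The text names all 40 members, Bach1, Myc, Mycn, and up to 2 genes higher and 2 lower per other list with the smallest adjusted p, of which 1 is not reported here; Mxi1, Mxd1, Mnt, the opposite-strand partners and the pairs of members set in ratio were chosen after their values were seen. The members and lists were chosen with earlier results of these data known. Lists covered polymerase I and III, subunit assembly, snoRNPs, nucleases, MYC, ribosomal proteins, p53 and cell type markers. No set test was run. Alternatives were another pseudocount (0.1), no filter, a filter at 5 FPKM, 3 scalings, a constant prior variance, a test against a fold change of 1.5 and leaving out each library.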

Additional observations from a re-analysis of the deposited data

How the results depend on the processing

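No paired analysis was possible because the table's columns carry no replicate number that the labels tie to a sample. Some sample titles of both genotypes end in the same digits, whose meaning the labels do not state, and the columns do not carry those digits. Direction held under all 14 alternatives for 35 of the 40 members, and 28 kept both direction and call in all but the test against a fold change of 1.5. Log2 fold changes below are BACH1-KO minus WT. Without single libraries the number of members called ran from 32 to 35 (26 to 29 lower, 6 to 7 higher), and the median log2 fold change of the members from -0.30 to -0.25. That median was -0.23 with equal sums, -0.33 with median-of-ratios scaling and -0.19 with quantile normalization, where the median of all genes was 0.04, -0.05 and -0.04. Quantile normalization called 10 members higher and 25 lower, so that 28.6% of the called members were higher, against 17.1% in the reported test. Of all called genes, 45.96% were higher with quantile normalization and 48.43% in the reported test. The difference in the members' summed share, BACH1-KO minus WT, was -0.0339 percentage points and ran from -0.0625 to -0.00128 without single libraries, nearest to 0 without WT library 1, and was -0.0929 after quantile normalization. With a filter at 5 FPKM, 2942 genes were called higher among fewer genes tested. Against a fold change of 1.5, 2319 of all genes were called (1325 higher, 994 lower) and 7 members (3 higher, 4 lower). That test called 0 of the 10 other polymerase I genes, with 1 at an unadjusted p under 0.05. The reported limma test called 8 of these 10. Against a fold change of 1.5, limma called 19.0% of all genes. It called 6 of 50 other small-subunit genes, 5 of 52 other large-subunit genes and 3 of 11 other snoRNP genes. The same test called 3 of 26 nucleases, 4 of 12 MYC network genes and 1 of 79 ribosomal proteins. In the p53 list it called 3 of 10, and in the polymerase III list 3 of 18. Signs reversed for Nhp2, called lower at -0.13 in the reported test (0.058 with quantile normalization), and for 4 members not called there, which were Npm1 (0.0168 with equal sums), Nob1 (0.0943 with quantile normalization), Wdr43 (0.0613 with equal sums, 0.1469 with quantile normalization, and -0.0235 to 0.0185 without single libraries) and Mrto4 (0.0581 with equal sums, 0.141 with quantile normalization, and -0.0191 to 0.0281 without single libraries). Npm1 was called lower after quantile normalization (-0.18, adjusted p = 0.0141). The cause of these shifts was not tested. Without counts, the depth limit of single values is unknown.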

Other observations

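RNA polymerase III, which makes 5S ribosomal RNA and transfer RNAs, had genes that moved in both directions. Of 18 genes of its transcription machinery, 9 fell, 5 rose and 4 did not pass by limma at an adjusted p of 0.05. That is 77.8% called, against 77.0% of all genes, and the median log2 fold change, BACH1-KO minus WT, was -0.15. Polr3g, the subunit form typical of pluripotent cells, averaged 33.5 ± 1.51 FPKM in BACH1-KO and 59.5 ± 1.36 FPKM in WT (SD, n = 3 each), and Bdp1, a TFIIIB component, 3.98 ± 0.192 and 8.59 ± 0.350 FPKM. The subunit gene Polr3d averaged 17.9 ± 0.306 FPKM in BACH1-KO and 14.6 ± 0.208 FPKM in WT.

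The p53 pathway is known to respond when ribosome assembly fails. Of 10 genes in its list 6 rose, 3 fell and 1 did not pass, with a median log2 fold change of 0.23, while 37.3% of all genes rose and 39.7% fell. No test of that difference was run. Ccng1, a p53 target, averaged 263 ± 3.60 FPKM in BACH1-KO and 94.8 ± 2.19 FPKM in WT, and Sesn2, a stress-induced gene, 40.6 ± 2.02 and 11.6 ± 0.582 FPKM. Mdm4, a p53 inhibitor, averaged 20.7 ± 0.535 FPKM in BACH1-KO and 39.2 ± 3.68 FPKM in WT, and Cdkn2a, which encodes the nucleolar protein ARF, 24.6 ± 1.06 and 31.0 ± 2.60 FPKM. Whether these levels bear on ribosome production was not tested.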
